A study of Mus musculus with 18 samples.

Results

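The genes described here are the extracellular matrix proteases of the metalloproteinase (MMP) and ADAMTS families with their inhibitors and activators. They are the protein-coding genes with a mouse symbol of the form Mmp, Adamts, Adamtsl or Timp1 to Timp4 plus a number or letter, together with Reck, Plau, Plat and Plaur. By that rule 54 of the 55487 genes in the count files were members: 22 Mmp, 19 Adamts, 5 Adamtsl and 4 Timp genes, and the other four by name. The rule uses gene names and no measured value.

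They were measured by poly(A) RNA-seq in T23, a line of mouse prostate adenocarcinoma cells, with 18 libraries that form 6 groups of 3. In 1 group T23 cells were grown with fibroblasts under enzalutamide (ENZA, an androgen receptor antagonist) and isoliquiritigenin (ISO, a plant chalcone). Another had fibroblasts and enzalutamide, and another had enzalutamide with no fibroblasts. The untreated groups were T23 cells with SPARC-deficient fibroblasts (Fibro SparcKO), T23 cells with wild-type fibroblasts (Fibro) and T23 cells alone. All 6 groups share the T23 line, and the Sparc deficiency is a property of the fibroblasts and not of the T23 cells. For both co-culture groups with enzalutamide the descriptions name human fibroblasts, whereas their titles carry FIBROB6, the fibroblast name of the wild-type co-culture, so the species of those fibroblasts is not settled by the labels. Doses, times, the culture format and the way T23 cells were separated from fibroblasts are not given in the sources used here. Where a comparison sets an enzalutamide co-culture against the wild-type co-culture, it assumes the same fibroblasts.

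MMPs are zinc proteases that are made as inactive precursors. They become active when the propeptide is cut off, by furin-like convertases for the membrane-type members and by plasmin or other MMPs for many secreted ones. TIMP proteins block their active site, and RECK restrains several of them at the cell surface. The plasminogen activators uPA (Plau) and tPA (Plat) make plasmin, and Plaur is the uPA receptor. ADAMTS proteases are secreted: one group removes the amino-terminal propeptide of procollagens, another cuts proteoglycans such as versican and aggrecan, and ADAMTS-like proteins keep the ancillary domains but lack the protease domain. SPARC is a secreted collagen-binding glycoprotein, and in prostate tumours much of the matrix protease production is ascribed to the stroma.

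Library totals lay between 16.1 and 26.7 M counts, so that 3 counts, the limit that a count of 0 allows, correspond to 0.112 to 0.186 CPM (counts per M counts of a library). Levels below are normalised CPM, that is CPM over the TMM-scaled library total, unless a value is said to be per kb of exon. Replicate 2 of T23 cells with enzalutamide alone held 26.4% of its counts on one ribosomal RNA gene, against at most 0.138% in the other libraries. Mitochondrial genes took 1.55 to 4.06% of counts in the enzalutamide groups and 0.824 to 1.68% in the untreated groups. Sparc stood between 2586 and 3208 CPM in all 18 libraries, and T23 cells express it themselves, so it does not check the genotype of the fibroblasts. Of 6 luminal epithelial markers 5, Epcam and Krt8 among them, stayed under 1 CPM in all libraries and Krt19 had 0.414 to 18.4 CPM, while Col1a1 stood at 6837 CPM or more and 6 of 7 fibroblast markers exceeded 1 CPM throughout, also in T23 cells grown alone. Ptprc, the pan-leukocyte marker, did not exceed 0.182 CPM. The epithelial identity of T23 cells is therefore not visible in these markers, and they cannot measure how much fibroblast RNA a library holds. In such bulk libraries fewer cells of a type and less RNA per cell cannot be told apart.

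Of the 54 members, 36 had enough counts to be tested, 24 of them with at least 10 CPM in all 18 libraries and 6 with at least 100 CPM. The TIMPs and their partner proteases led. Per kb of exon, in T23 cells alone, Timp2 was highest at 391 ± 9.03 CPM per kb (SD, n = 3). Timp1 followed at 121 ± 4.67 CPM per kb, then the gelatinase Mmp2 at 108 ± 2.52 and the membrane-type protease Mmp14, which activates pro-MMP2 together with TIMP2, at 99.99 ± 2.31. Timp3, the inhibitor that binds to the matrix, stood at 56.1 ± 2.77 CPM per kb. The other 5 of the 10 highest members were lower. Adamts1 had 34.4 ± 0.743 CPM per kb, Plau 29.7 ± 1.14, Mmp9, the other gelatinase, 25.5 ± 0.635, Mmp11 18.2 ± 1.08 and Plat 17.8 ± 0.263. Mmp11 and Plat differed by less than their spread, as did Plat and Plaur at 17.5 ± 0.4703 CPM per kb. The triple of Mmp14, Timp2 and Mmp2 was thus among the 4 highest members, and Reck stood far lower at 7.43 ± 0.0348 CPM per kb. Among the proteoglycan-cleaving ADAMTS genes Adamts5 reached 16.8 ± 0.00881 CPM per kb and Adamts9 only 1.49 ± 0.0366.

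**Figure D1:**
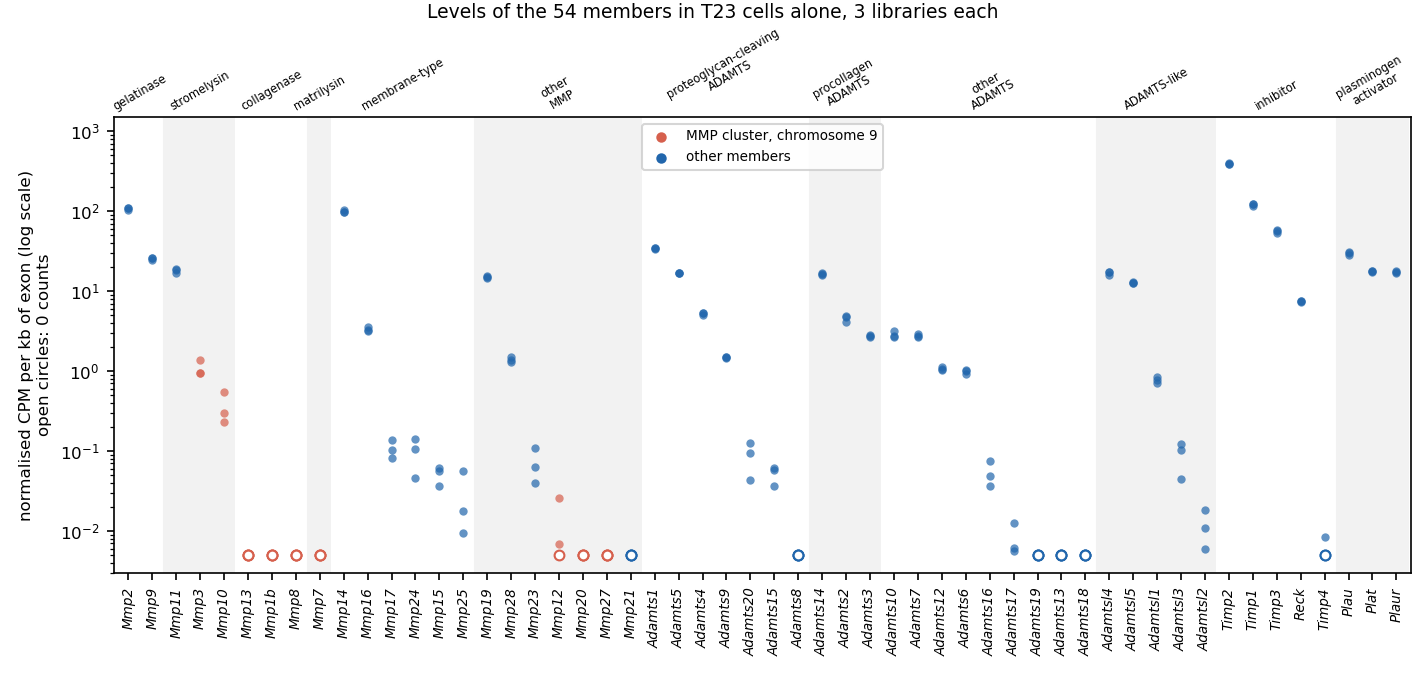
Normalised CPM per kb of exon (log scale) of the 54 members in T23 cells alone, 1 point per library, with members grouped by role along the x axis; open circles at the bottom stand for 0 counts. Timp2 is highest at 391 CPM per kb, and the members of the MMP cluster on chromosome 9, in red, are low or at 0.

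The 18 members that were not tested were nearly silent. Mmp1b, Mmp7, Mmp8, Mmp20, Mmp21, Adamts8 and Adamts18 had 0 counts in all 18 libraries, which allows at most 0.112 to 0.186 CPM in any of them. The other 11, Mmp12, Mmp13, Mmp23, Mmp24, Mmp25, Mmp27, Adamts13, Adamts17, Adamts19, Adamtsl2 and Timp4, never had more than 14 counts in a library. Mmp13, the main collagenase of rodents, reached at most 0.327 CPM and Timp4, the fourth TIMP, at most 0.187 CPM. Another 8 members passed the count filter but stayed under 3 CPM throughout: Mmp3, Mmp10, Mmp15, Mmp17, Adamts15, Adamts16, Adamts20 and Adamtsl3. No collagenase and no matrilysin was thus testable, while all gelatinases, stromelysins, procollagen ADAMTS genes and plasminogen activators were.

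Of the silent or low members, 9 share a locus and the others lie elsewhere. In map order, the 9 members Mmp13, Mmp12, Mmp1b, Mmp3, Mmp10, Mmp8, Mmp27, Mmp20 and Mmp7 lie within 427 kb on chromosome 9, from base 7272514 to 7699585 (GRCm38). There 4 had 0 counts in all libraries, and only Mmp3 and Mmp10, the stromelysins 1 and 2, were tested, with at most 2.80 CPM. Mmp3 had 2.24, 2.799 and 2.42 CPM in co-cultures with enzalutamide, where it was highest, against 1.203, 0.816 and 1.601 CPM with enzalutamide alone. The promoters of these genes are shown because their letters differ from those of most other members, silent ones included. Windows of 250 bases before the RefSeq start (GRCm38.p6) were at hand for 37 of the 54 members, and those of Mmp7, Mmp12 and Mmp23 had more than 1 start. They were searched on both strands for the AP-1 site TGANTCA, the TATA box TATAAA, the GC box GGGCGG, the cAMP response element TGACGTCA and CCAAT. Capitals below mark all of these motifs but CCAAT, and each window reads 5′ to 3′ toward the start of transcription. Mmp3 (chr9:7445572-7445821 on the plus strand), Mmp10 (chr9:7502092-7502341 on the plus strand) and Mmp13 (chr9:7272264-7272513 on the plus strand) come from the cluster, and Mmp14 (chr14:54431348-54431597 on the plus strand), Adamts1 (chr16:85803114-85803363 on the minus strand) and Adamts9 (chr6:92943535-92943784 on the minus strand) are expressed members from elsewhere.
Mmp3: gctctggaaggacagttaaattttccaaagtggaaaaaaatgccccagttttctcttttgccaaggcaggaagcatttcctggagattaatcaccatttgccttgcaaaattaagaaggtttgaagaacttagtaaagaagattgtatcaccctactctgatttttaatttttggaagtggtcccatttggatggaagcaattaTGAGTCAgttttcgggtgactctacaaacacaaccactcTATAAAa
Mmp10: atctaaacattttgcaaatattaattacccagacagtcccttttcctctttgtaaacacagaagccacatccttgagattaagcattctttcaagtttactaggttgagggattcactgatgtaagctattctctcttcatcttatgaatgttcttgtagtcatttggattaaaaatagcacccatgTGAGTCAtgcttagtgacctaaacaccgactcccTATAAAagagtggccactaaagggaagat
Mmp13: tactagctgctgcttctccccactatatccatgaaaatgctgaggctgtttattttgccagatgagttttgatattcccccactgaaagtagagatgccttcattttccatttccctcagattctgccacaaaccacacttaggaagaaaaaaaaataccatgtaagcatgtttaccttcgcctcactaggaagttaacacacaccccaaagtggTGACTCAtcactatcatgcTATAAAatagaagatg
Mmp14: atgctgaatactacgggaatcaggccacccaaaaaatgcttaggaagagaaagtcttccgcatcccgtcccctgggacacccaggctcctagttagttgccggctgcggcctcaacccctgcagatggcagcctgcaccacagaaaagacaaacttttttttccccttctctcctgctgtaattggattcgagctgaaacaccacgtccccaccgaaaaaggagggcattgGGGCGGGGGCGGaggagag
Adamts1: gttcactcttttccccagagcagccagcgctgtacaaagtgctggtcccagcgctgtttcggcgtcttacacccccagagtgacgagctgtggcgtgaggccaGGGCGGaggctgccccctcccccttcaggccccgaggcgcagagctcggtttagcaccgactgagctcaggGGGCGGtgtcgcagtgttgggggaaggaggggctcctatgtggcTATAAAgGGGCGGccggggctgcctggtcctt
Adamts9: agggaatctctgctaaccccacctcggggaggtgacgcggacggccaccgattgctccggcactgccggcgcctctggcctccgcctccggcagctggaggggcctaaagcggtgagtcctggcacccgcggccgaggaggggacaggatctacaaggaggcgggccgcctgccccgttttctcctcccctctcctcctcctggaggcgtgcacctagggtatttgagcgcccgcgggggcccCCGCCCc

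Mmp3 and Mmp10 carry TGAGTCA and Mmp13 its other form TGACTCA, each followed by a TATA box, whereas Mmp14, Adamts1 and Adamts9 carry GC boxes and Adamts1 also a TATA box. Over the cluster, 7 of 9 genes had the AP-1 letters in at least 1 window, 6 the TATA box and none the GC box. Mmp12 counted only through its window 2993 bases from the annotated gene start, and not through the one 16 bases away. Mmp20 counted through the form TGAATCA. Of the other 28 members with a window, only Plaur had the AP-1 letters, 3 the TATA box (Adamts1, Adamtsl2 and Mmp21) and 22 the GC box. These 28 were not all expressed. Mmp21, Mmp23, Mmp24, Mmp25, Adamts13, Adamts17, Adamts18, Adamtsl2 and Timp4 were not tested, and none of them had the AP-1 letters. Of these, Adamts18, Adamtsl2, Mmp24 and Mmp25 had the GC box. Plaur had at least 34.8 CPM in all libraries. Outside the cluster the AP-1 letters thus did not mark the silent members. The windows of Adamts20 and Mmp11, both with GC boxes, lay 61068 and 3994 bases from the annotated gene starts. Among 32851 windows of all genes, 6.75% held the AP-1 letters, 12.4% the TATA box, 32.7% the GC box, 33.8% CCAAT and 1.55% the cAMP response element. Base composition moved with these counts, since the cluster windows had 37.2 to 53.2% G and C and the others 53.6% or more. A match describes letters and is not evidence of binding.

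With Sparc-deficient fibroblasts, T23 libraries held more mRNA of the proteoglycan-cleaving ADAMTS proteases: 4 of the 6 tested (Adamts1, Adamts4, Adamts5 and Adamts9) rose 1.30- to 1.55-fold relative to the wild-type co-culture. Adamtsl4, Mmp19, Adamts12, Plat, Timp3 and Reck rose as well. Adamts15, Adamtsl1, Mmp16, Adamts10 and Mmp14 fell, and among these Mmp14 and Mmp16 are membrane-type MMPs. In all, 10 members were higher and 5 lower at an adjusted p under 0.05 (edgeR's quasi-likelihood test, Benjamini-Hochberg adjustment over 13600 genes). That is 15 of 36 tested members, beside 11.5% of all tested genes called in this comparison (6.72% higher and 4.79% lower). The median log2 fold change of the tested members was 0.13, beside -0.01 over all genes.

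Adamts9 (ENSMUSG00000030022, chr6:92772699-92943492, minus strand), a secreted protease of versican, had 40.8, 40.1 and 42.2 CPM in the Sparc-deficient co-culture, against 27.6, 26.2 and 25.7 CPM in the wild-type co-culture. Adamts5 (ENSMUSG00000022894, chr16:85856173-85901828, minus strand), the main aggrecanase of mouse cartilage, had 255, 257 and 287 CPM, against 189, 181 and 184 CPM. The 3 libraries with Sparc-deficient fibroblasts lay above all 3 wild-type ones in both genes, and the log2 fold changes were 0.63 ± 0.07 (SE, adjusted p = 1.43e-06) for Adamts9 and 0.53 ± 0.05 (adjusted p = 4.03e-07) for Adamts5. Adamts1, which cuts versican and aggrecan, had 238, 238 and 258 CPM with Sparc-deficient fibroblasts and 189.6, 183 and 174 CPM with wild-type fibroblasts. Adamts4, another aggrecanase, had 32.5, 31.9 and 33.1 CPM, against 25.4, 25.5 and 24.2 CPM. These groups did not overlap either, at 1.34-fold (adjusted p = 1.39e-05) and 1.3-fold (adjusted p = 0.00105). Adamts20, the remaining proteoglycanase that did not pass, had 1.28, 0.887 and 0.613 CPM, against 0.625, 0.668 and 0.809 CPM. Adamts15 went the other way from a very low level, with 0.137, 0.246 and 0.175 CPM in the Sparc-deficient co-culture against 0.312, 0.864 and 0.506 CPM in the wild-type co-culture. All 3 of its values were below the wild-type ones, but they rest on 3 to 5 counts per library.

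Adamtsl4, an ADAMTS-like protein of the microfibrils that hold the lens, had 79.7, 93.4 and 82.2 CPM with Sparc-deficient fibroblasts, against 60.4, 60.4 and 62 CPM with wild-type fibroblasts. Mmp19 had 59.4, 58.96 and 62.5 CPM, against 47.8, 44.6 and 48.7 CPM. Both rose without overlap, by 1.4-fold (adjusted p = 7.85e-05) and 1.28-fold (adjusted p = 0.0004602). Adamtsl1, also named punctin, fell: 5.29, 6.21 and 6.79 CPM with Sparc-deficient fibroblasts, against 9.95, 9.74 and 8.698 CPM, a log2 fold change of -0.63 ± 0.14 (adjusted p = 0.00408). Mmp16, a membrane-type MMP, had 19.2, 18.4 and 22.7 CPM, against 26.6, 26.8 and 23.8 CPM. Mmp14 had 525, 536 and 533 CPM with Sparc-deficient fibroblasts, against 618, 625 and 564 CPM with wild-type fibroblasts. Both fell without overlap, at log2 -0.36 (adjusted p = 0.0279) and -0.18 (adjusted p = 0.0378). Adamts12, which cuts the cartilage protein COMP, rose at log2 0.4 (adjusted p = 0.0202) and Adamts10, a fibrillin-binding member, fell at log2 -0.28 (adjusted p = 0.0444).

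Among the inhibitors Timp3 had 462, 511 and 515 CPM with Sparc-deficient fibroblasts, against 431, 427 and 440.5 CPM with wild-type fibroblasts. Reck had 34.02, 38.8 and 36.2 CPM, against 30.5, 28.99 and 33.7 CPM. Each rose without overlap, by 1.15-fold (adjusted p = 0.0364) and 1.17-fold (adjusted p = 0.0456). Timp1 averaged 110.3 ± 7.25 CPM, against 102 ± 4.81 CPM, and Timp2 1461 ± 15.9 CPM, against 1516 ± 41.2 CPM, and neither passed the test (log2 0.11 and -0.05). The gelatinases did not pass it either, with Mmp2 at 357 ± 5.07 CPM against 345 ± 13.4 CPM and Mmp9 at 94.7 ± 1.56 CPM against 93.2 ± 5.97 CPM. Plat rose by 1.18-fold (adjusted p = 0.00335), with 150.1, 142 and 145 CPM in the Sparc-deficient co-culture and 124, 128 and 120.1 CPM in the wild-type one, again without overlap. Plau at 72.5 ± 0.7804 CPM against 66.4 ± 4.29 CPM and Plaur at 43.4 ± 2.82 CPM against 45.2 ± 2.59 CPM did not pass.

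The calls of 7 members missed the threshold when a single library was left out. These were Adamts12 without wild-type co-culture replicate 2 or Sparc-deficient replicate 2 (adjusted p between 0.102 and 0.125), Adamts15 without wild-type co-culture replicate 2 or Sparc-deficient replicates 1 or 3 (adjusted p between 0.0842 and 0.245), Mmp16 without wild-type co-culture replicates 1 or 2 or Sparc-deficient replicates 1 or 2 (adjusted p between 0.0948 and 0.145) and Mmp14 without wild-type co-culture replicates 1 or 2 or Sparc-deficient replicates 1, 2 or 3 (adjusted p between 0.0965 and 0.182). The others were Reck without wild-type co-culture replicates 1 or 2 or Sparc-deficient replicates 2 or 3 (adjusted p between 0.0953 and 0.219), Timp3 without wild-type co-culture replicates 1, 2 or 3 or Sparc-deficient replicates 2 or 3 (adjusted p between 0.0522 and 0.148) and Adamts10 without wild-type co-culture replicates 1, 2 or 3 or Sparc-deficient replicates 1, 2 or 3 (adjusted p between 0.0676 and 0.219). The number of members called came to 8 without wild-type co-culture replicate 2 and 9 without Sparc-deficient replicate 2, against 15 with all libraries. Adamts4, Adamts9, Mmp16, Mmp19, Reck, Timp3 and Adamtsl1, which are called here, overlap other annotated genes on the genome, as do the tested members Timp1, Timp2, Mmp11, Mmp28, Adamts2, Adamts3, Adamts7, Adamts16 and Adamtsl3, and the strand setting of the counting is not given, so their counts may include reads of those genes. Summed marker levels lay apart in the Sparc-deficient and the wild-type co-culture, at 23061 to 24046 CPM against 20441 to 21677 CPM for the 7 fibroblast markers, 371 to 443 CPM against 462 to 543 CPM for the 4 smooth muscle markers, 16.6 to 19.1 CPM against 12.8 to 13.9 CPM for the 6 luminal markers, 6.16 to 7.84 CPM against 2.81 to 3.93 CPM for the 3 basal markers and 3.77 to 3.94 CPM against 4.35 to 5.52 CPM for the 3 endothelial markers. Krt19 carried the luminal difference, at 17.3 ± 1.48 CPM with Sparc-deficient fibroblasts against 12.1 ± 0.693 CPM, while Krt8 had 0.134 ± 0.117 CPM against 0.398 ± 0.171 CPM. The part of these shifts in the members' differences was not tested.

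Genes that work with these proteases were taken as lists, whose counts stand beside the 11.5% of all genes called. Of 7 tested plasminogen partners none rose and 1 fell: Serpine2, an inhibitor of thrombin and the plasminogen activators, averaged 53.7 ± 1.08 CPM with Sparc-deficient fibroblasts against 64.2 ± 1.04 CPM with wild-type fibroblasts (log2 -0.26 ± 0.06, adjusted p = 0.00344). The median of that list was 0.05 on the log2 scale, beside -0.01 over all genes. Of 8 tested MMP activators and partners, 2 rose and 1 fell. Bsg, which encodes the MMP inducer basigin, averaged 1437 ± 98.7 CPM against 985 ± 76.2 CPM (adjusted p = 2.22e-05), Cav1 changed by log2 0.3, and the proprotein convertase Pcsk6 averaged 2.71 ± 0.636 CPM against 5.39 ± 0.6596 CPM (adjusted p = 0.000516). Of the 7 AP-1 subunits, the factors that bind the AP-1 site, 4 rose and none fell (list median 0.22). Fos averaged 7.21 ± 0.714 CPM with Sparc-deficient fibroblasts against 1.99 ± 0.3299 CPM (log2 1.84 ± 0.16, adjusted p = 3.47e-08) and Junb 148 ± 17.6 CPM against 75.5 ± 6.94 CPM (adjusted p = 1.61e-06). The tested members with the AP-1 letters in their promoter window, Mmp3, Mmp10 and Plaur, did not pass the test in this comparison, at log2 -0.21 ± 0.20, 0.25 ± 0.43 and -0.06 ± 0.09 (SE). Mmp3 and Mmp10 stayed under 3 CPM, and only 21 of the 36 tested members had a window. None was at hand for Adamts4, Adamts5, Mmp19 or Plat, which rose. Against T23 cells alone, 2 of the 7 AP-1 subunits rose with Sparc-deficient fibroblasts (list median 0.06), beside 9.74% of all genes called. With wild-type fibroblasts against T23 cells alone 1 subunit fell (list median -0.13), beside 0.515%. The wild-type co-culture thus lay below T23 cells alone in the median of this list. Whether AP-1 acts on the members was not tested.

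**Figure D2:**
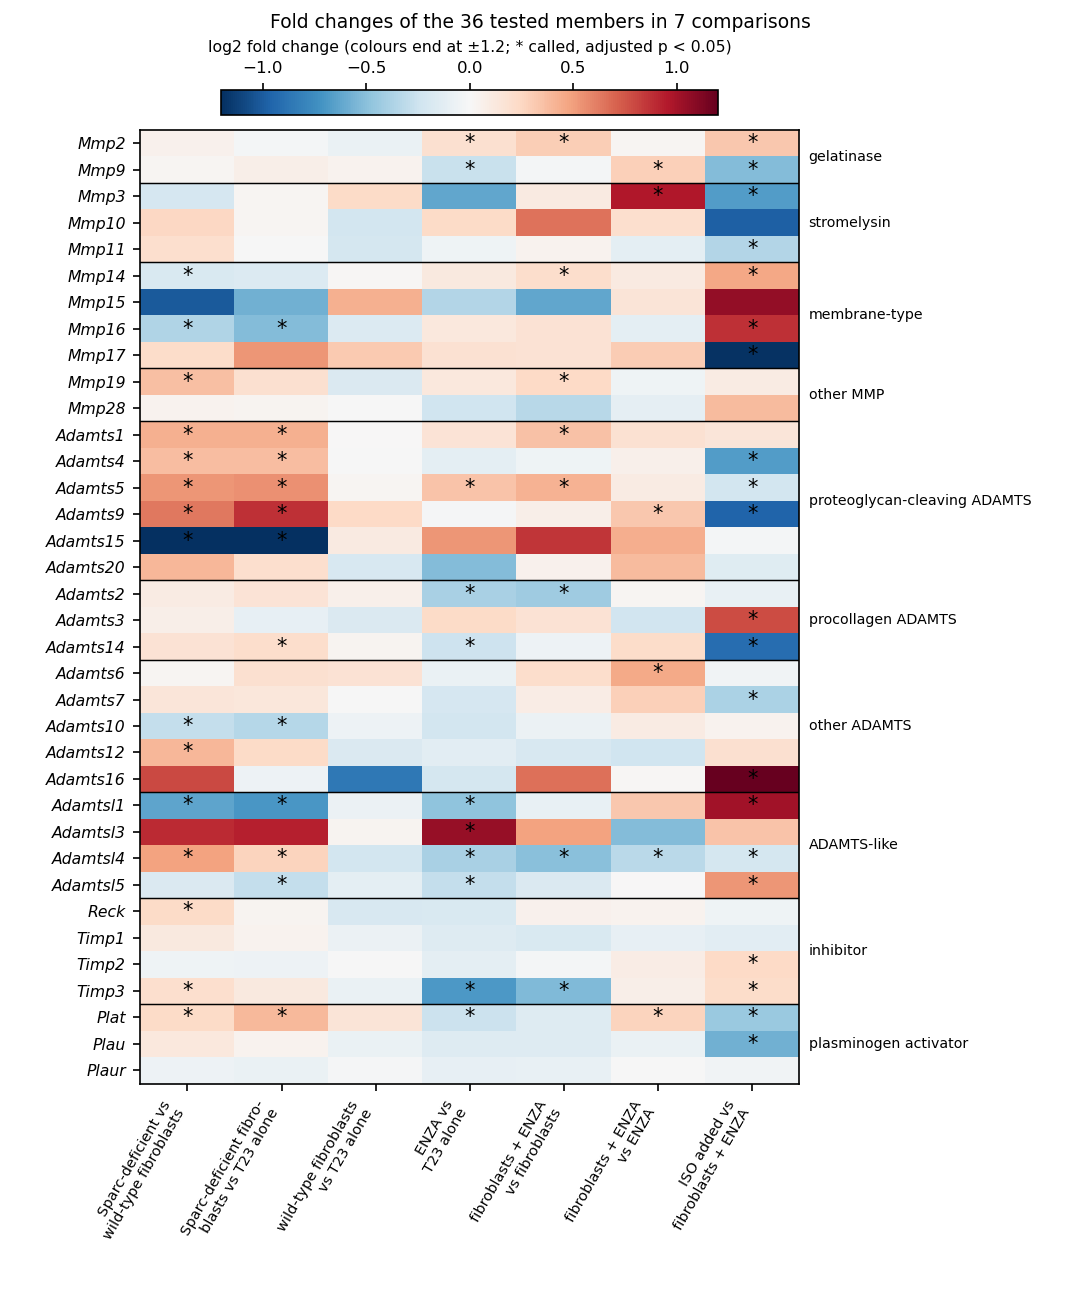
Log2 fold change of the 36 tested members (rows, by role) in the 7 comparisons (columns), red for higher and blue for lower in the first-named group and full colour from 1.2, with asterisks where edgeR's adjusted p is under 0.05. The column with isoliquiritigenin has 21 asterisks and the column of wild-type fibroblasts against T23 cells alone has 0.

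Set against T23 cells alone, the Sparc-deficient co-culture gave 7 members higher and 5 lower, beside 9.74% of all tested genes called (6.1% higher and 3.65% lower); this comparison shares its Sparc-deficient libraries with the one above. Adamts9 had 40.8, 40.1 and 42.2 CPM in the Sparc-deficient co-culture, against 22.6, 21.8 and 22.9 CPM in T23 cells alone, which is 1.83-fold (adjusted p = 1.10e-08). Adamts5 had 255, 257 and 287 CPM, against 182, 182 and 182 CPM in T23 cells alone. Plat had 150.1, 142 and 145 CPM, against 109, 112 and 113 CPM. No library of the Sparc-deficient co-culture fell within the range of T23 cells alone in any of these genes. Adamts1 had 238, 238 and 258 CPM, against 182, 186 and 178 CPM (1.34-fold), and Adamts4 had 32.5, 31.9 and 33.1 CPM, against 25.8, 24.2 and 25.4 CPM (1.29-fold). Adamtsl4 (1.2-fold) and Adamts14, a procollagen N-propeptidase (1.16-fold), were also higher. Adamtsl1 had 5.29, 6.21 and 6.79 CPM, against 9.799, 10.8 and 9.18 CPM in T23 cells alone (log2 -0.7 ± 0.14, adjusted p = 0.00169). Mmp16 had 19.2, 18.4 and 22.7 CPM, against 30.6, 28.3 and 27.4 CPM (log2 -0.52 ± 0.10, adjusted p = 0.00187). Adamts15 had 0.137, 0.246 and 0.175 CPM, against 0.602, 0.377 and 0.642 CPM (log2 -1.52 ± 0.48). These were lower in each Sparc-deficient library, and the calls also took in Adamts10 (log2 -0.34) and Adamtsl5 (log2 -0.29), both lower. Timp3, Reck, Mmp19, Mmp14 and Adamts12, called against the wild-type co-culture, were not called against T23 cells alone. Reck averaged 36.3 ± 2.38 CPM in the Sparc-deficient co-culture against 35.5 ± 0.166 CPM in T23 cells alone. Timp3 averaged 496 ± 29.6 CPM against 456 ± 22.6 CPM, and Mmp19 60.3 ± 1.94 CPM against 52.9 ± 1.59 CPM. Calls that missed the threshold without 1 library were Adamtsl4 without T23-alone replicates 2 or 3 or Sparc-deficient replicate 2 (adjusted p between 0.05097 and 0.164), Adamtsl5 without T23-alone replicates 1, 2 or 3 or Sparc-deficient replicate 3 (adjusted p between 0.0523 and 0.0958) and Adamts10 without T23-alone replicate 3 or Sparc-deficient replicates 1 or 2 (adjusted p between 0.0606 and 0.121). So did Adamts14 without T23-alone replicates 1, 2 or 3 or Sparc-deficient replicates 1, 2 or 3 (adjusted p between 0.0828 and 0.158) and Adamts15 without T23-alone replicates 1 or 3 or Sparc-deficient replicates 1, 2 or 3 (adjusted p between 0.0716 and 0.145), and without T23-alone replicate 3 the count was 7 against 12. The call of Adamts15 was also lost with DESeq2 (adjusted p = 0.0705), without the count filter (0.0507), with the replicate block (0.0513) and with a term for the numbering series of the titles (0.0507). Marker sums that did not overlap between the Sparc-deficient co-culture and T23 cells alone were 23061 to 24046 CPM against 20996 to 21596 CPM for the 7 fibroblast markers, 16.6 to 19.1 CPM against 9.498 to 10.9 CPM for the 6 luminal markers, 6.16 to 7.84 CPM against 3.11 to 5.16 CPM for the 3 basal markers and 3.77 to 3.94 CPM against 5.33 to 6.76 CPM for the 3 endothelial markers; their part in the members' differences was not tested.

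With wild-type fibroblasts no member passed the test against T23 cells alone: 0 were called with edgeR and 0 with DESeq2, beside 0.515% of all tested genes called with edgeR. At an unadjusted p under 0.05 there were 6, namely Adamts9, Plat, Adamtsl4, Mmp11, Mmp19 and Reck, beside 10.4% of all tested genes at that threshold. Adamts9 had 27.6, 26.2 and 25.7 CPM with wild-type fibroblasts, against 22.6, 21.8 and 22.9 CPM in T23 cells alone, and Plat had 124, 128 and 120.1 CPM, against 109, 112 and 113 CPM. Both were higher in every co-culture library by small steps, at log2 0.24 ± 0.07 (adjusted p = 0.17) and 0.16 ± 0.05 (adjusted p = 0.204). Adamtsl4 had 60.4, 60.4 and 62 CPM, against 72.7, 67.7 and 72.3 CPM, Mmp11 had 42.5, 44.1 and 44.5 CPM, against 50.9, 47.4 and 53.4 CPM, and Mmp19 had 47.8, 44.6 and 48.7 CPM, against 52.6, 54.7 and 51.5 CPM. All of them were lower in every co-culture library (adjusted p between 0.241 and 0.3103). With only these 6 libraries in the fit, Adamtsl4 and Mmp11 passed, so 2 members were called. The marker sums apart between these groups were 462 to 543 CPM against 343 to 391 CPM for the 4 smooth muscle markers and 12.8 to 13.9 CPM against 9.498 to 10.9 CPM for the 6 luminal markers.

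**Figure D3:**
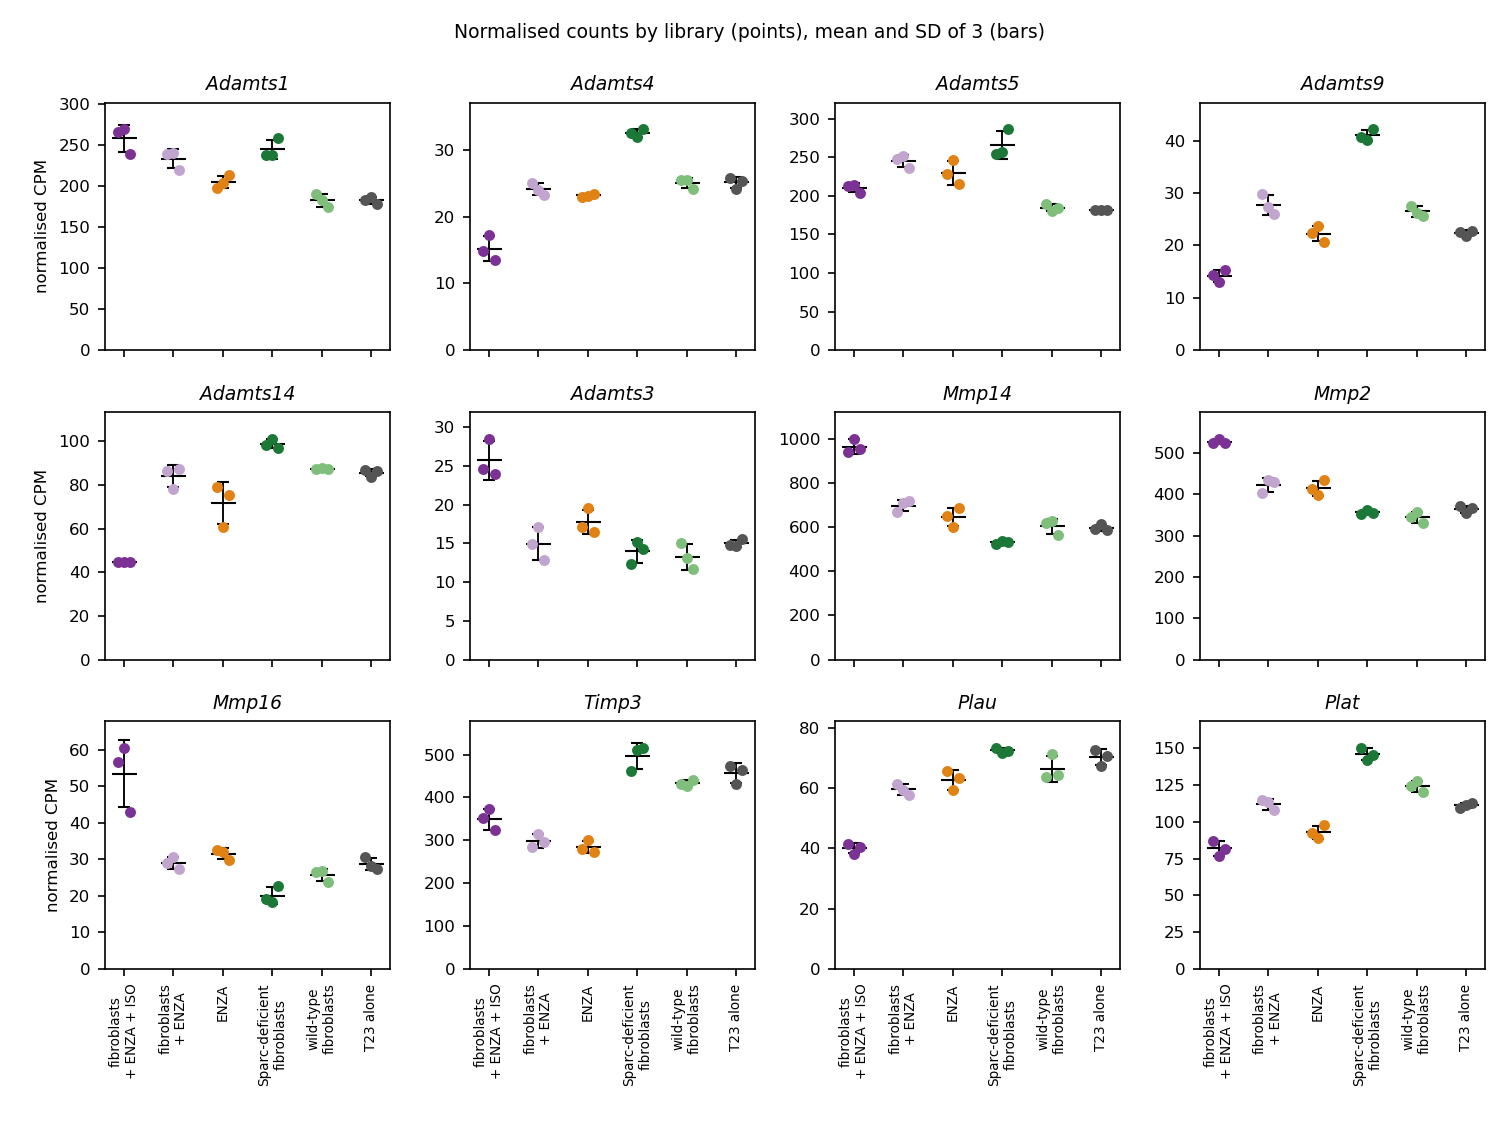
Normalised CPM of 12 members in every library (points), 1 panel per gene with its own axis from 0 and the 6 groups from left to right, with a line at the mean and error bars of 1 SD (n = 3). Adamts9 is highest in the Sparc-deficient co-culture (mean 41.1 CPM) and lowest with isoliquiritigenin (14.2 CPM).

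Under enzalutamide alone the inhibitor Timp3 was 1.61-fold lower than in untreated T23 cells, the smallest p among the members of this comparison. The ADAMTS-like genes Adamtsl1, Adamtsl4 and Adamtsl5 and the procollagen N-propeptidases Adamts2 and Adamts14 fell with it, while Adamts5, Mmp2 and Adamtsl3 rose. Of the 36 tested members 3 were higher and 8 lower, beside 12% of all tested genes called (6.84% higher and 5.19% lower). Timp3 (ENSMUSG00000020044, chr10:86300372-86349506, plus strand) had 279.9, 299.8 and 272 CPM under enzalutamide, against 474, 431 and 464 CPM in untreated cells. Adamtsl4 had 59.9, 52.2 and 49.6 CPM, against 72.7, 67.7 and 72.3 CPM. Adamts2, a procollagen N-propeptidase, had 33.95, 30.4 and 33.8 CPM, against 46.03, 38.3 and 44.6 CPM. All 3 treated libraries lay below the untreated ones in each of these, at log2 -0.69 ± 0.06 (adjusted p = 6.71e-08), -0.39 ± 0.07 (adjusted p = 0.00109) and -0.39 ± 0.08 (adjusted p = 0.001701). Plat had 92.2, 88.97 and 97.7 CPM under enzalutamide, against 109, 112 and 113 CPM. Mmp9 had 76.8, 77.9 and 70.9 CPM, against 87.8, 91.8 and 91.5 CPM. These too fell without overlap, by 1.19-fold (adjusted p = 0.00207) and 1.2-fold (adjusted p = 0.00313). Adamts5 rose, with 229, 246 and 215 CPM under enzalutamide against 182, 182 and 182 CPM (log2 0.34 ± 0.05, adjusted p = 0.000206), and Mmp2 rose with 413, 398 and 434 CPM against 371, 354 and 366 CPM (log2 0.19, adjusted p = 0.0133). The treated libraries of both lay above all untreated ones.

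Among the remaining calls Adamtsl1 (log2 -0.48), Adamtsl5 (log2 -0.29) and Adamts14 (log2 -0.24) were lower. Adamtsl3 was higher from a low level, with 1.203, 1.45 and 1.601 CPM under enzalutamide and 0.344, 0.802 and 0.938 CPM in untreated cells. The calls of Adamtsl1 (adjusted p = 0.061) and Adamtsl3 (0.0985), like those of Mmp2 (0.0673) and Adamts14 (0.123), were lost with only the 6 libraries of this comparison in the fit, and that of Adamtsl3 also with DESeq2 (0.0577). Adamts3, the other procollagen N-propeptidase tested, averaged 17.7 ± 1.58 CPM under enzalutamide against 14.98 ± 0.496 CPM and did not pass (adjusted p = 0.188). Timp1 at 95.8 ± 12.7 CPM against 107 ± 4.14 CPM, Timp2 at 1403 ± 49.4 CPM against 1525 ± 35.2 CPM and Reck at 31.2 ± 1.29 CPM against 35.5 ± 0.166 CPM did not pass, nor did Mmp14 at 645 ± 41.99 CPM against 596 ± 13.8 CPM, Plau at 62.7 ± 3.25 CPM against 70.2 ± 2.696 CPM or Plaur at 42.4 ± 7.73 CPM against 45.8 ± 1.23 CPM. Calls lost without 1 library were Adamtsl1 without T23-alone replicates 1 or 2 or enzalutamide-alone replicates 1 or 2 (adjusted p between 0.0645 and 0.111), Adamtsl3 without T23-alone replicates 1 or 2 or enzalutamide-alone replicates 2 or 3 (adjusted p between 0.0655 and 0.211) and Adamtsl5 without T23-alone replicates 1 or 3 or enzalutamide-alone replicate 2 (adjusted p between 0.0543 and 0.0658). So were Mmp2 without T23-alone replicate 2 or enzalutamide-alone replicate 3 (adjusted p between 0.0564 and 0.0692) and Adamts14 without T23-alone replicates 1 or 3 or enzalutamide-alone replicate 2 (adjusted p between 0.0613 and 0.0778), where the log2 fold change of Adamts14 was -0.15 without the library rich in ribosomal RNA, enzalutamide-alone replicate 2. The count was 7 against 11 without T23-alone replicate 1 and also with only the 6 libraries of this comparison in the fit. Between enzalutamide and untreated T23 cells, the marker sums apart were 18288 to 19850.1 CPM against 20996 to 21596 CPM for the 7 fibroblast markers and 2.18 to 2.76 CPM against 3.11 to 5.16 CPM for the 3 basal markers, and their part in these differences was not tested.

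Of the 7 tested plasminogen partners 2 rose and none fell, beside the 12% of all genes called: Lrp1, an endocytic receptor that clears protease and inhibitor complexes, averaged 1321 ± 105 CPM under enzalutamide against 959 ± 57.3 CPM, and Serpine2 changed by log2 0.24 (adjusted p = 0.00568). Of 4 tested proteoglycan and glycoprotein substrates 2 rose and 1 fell. Vcan (versican) averaged 343 ± 36.7 CPM against 226 ± 6.02 CPM (log2 0.6 ± 0.07, adjusted p = 2.04e-06) and Acan (aggrecan) 1.24 ± 0.187 CPM against 2.49 ± 0.814 CPM (log2 -1.03 ± 0.28, adjusted p = 0.01698). The list medians were 0.05 and 0.00 on the log2 scale.

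In the presence of fibroblasts, enzalutamide gave 5 members higher and 3 lower than in the untreated wild-type co-culture, beside 7.18% of all tested genes called (3.7% higher and 3.49% lower). Timp3 had 284, 316 and 297 CPM in the co-culture with enzalutamide, against 431, 427 and 440.5 CPM without it. Adamtsl4 had 44.6, 38.6 and 46.1 CPM, against 60.4, 60.4 and 62 CPM. Both fell without overlap, by 1.45-fold (adjusted p = 4.98e-06) and 1.41-fold (adjusted p = 0.000116), and so did Adamts2 by 1.34-fold (adjusted p = 0.000821). Adamts5 had 248, 252 and 237 CPM with enzalutamide, against 189, 181 and 184 CPM. Adamts1 had 239, 240.2 and 219 CPM, against 189.6, 183 and 174 CPM. Mmp2 had 402, 435 and 429.9 CPM, against 345, 358 and 331 CPM. The treated libraries were above the untreated ones in all of these, at log2 0.41 ± 0.05 (adjusted p = 2.79e-05), 0.35 ± 0.06 (adjusted p = 0.0001995) and 0.29 ± 0.05 (adjusted p = 0.000491). Mmp14 (log2 0.21) and Mmp19 (log2 0.24) also rose. The marker sums of the treated and the untreated co-culture also lay apart, at 18623 to 19523 CPM against 20441 to 21677 CPM for the 7 fibroblast markers, 568 to 639.8 CPM against 462 to 543 CPM for the 4 smooth muscle markers, 5.95 to 8.19 CPM against 12.8 to 13.9 CPM for the 6 luminal markers, 1.78 to 2.38 CPM against 2.81 to 3.93 CPM for the 3 basal markers and 3.27 to 3.399 CPM against 4.35 to 5.52 CPM for the 3 endothelial markers, and their part in the members' changes was not tested.

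The index at the end of the sample titles starts again for 5 libraries, co-culture with enzalutamide replicates 2 and 3 and the 3 with isoliquiritigenin; whether it marks a sequencing run is not stated. With this numbering series as a term, 5 members were called, and Mmp2 (adjusted p = 0.109), Mmp14 (0.464) and Mmp19 (0.226) were not. Calls lost without 1 library were Mmp14 without wild-type co-culture replicate 3 or enzalutamide co-culture replicates 2 or 3 (adjusted p between 0.0911 and 0.135) and Mmp19 without wild-type co-culture replicate 2 or enzalutamide co-culture replicate 3 (adjusted p between 0.0723 and 0.1104). Whether the response to enzalutamide differed with and without fibroblasts was tested by the interaction: 0 members passed with edgeR and 0 with DESeq2, beside 0.0221% of all tested genes called with edgeR, and 5 had an unadjusted p under 0.05, beside 5.55% of all tested genes. These were Mmp9 (log2 0.24 ± 0.08), Mmp3 (0.73 ± 0.31), Adamts1 (0.18 ± 0.08), Adamts7 (0.29 ± 0.12) and Reck (0.23 ± 0.10), all more positive in co-culture and with adjusted p from 0.759 to 0.865. For Timp3 the interaction was 0.15 ± 0.09 on the log2 scale, so its fall under enzalutamide was not shown to differ between the 2 settings.

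Set against enzalutamide alone, the co-culture with enzalutamide had 5 members higher and 1 lower, beside 2.08% of all tested genes called (1.14% higher and 0.941% lower). Plat had 115, 113 and 108 CPM with fibroblasts, against 92.2, 88.97 and 97.7 CPM without. Mmp9 had 84.8, 92.8 and 97.1 CPM, against 76.8, 77.9 and 70.9 CPM. Adamts9 had 29.9, 27.4 and 26.03 CPM, against 22.5, 23.7 and 20.7 CPM. Each was higher in all 3 co-cultures, at log2 0.26 ± 0.05 (adjusted p = 0.00647), 0.29 ± 0.06 (adjusted p = 0.00684) and 0.33 ± 0.07 (adjusted p = 0.0198). Mmp3, with the values given above, was 1.95-fold higher (adjusted p = 0.0223), and Adamts6 changed by log2 0.45 (adjusted p = 0.0291). Adamtsl4 was lower, with 44.6, 38.6 and 46.1 CPM against 59.9, 52.2 and 49.6 CPM (log2 -0.33, adjusted p = 0.0234). None of these 6 calls held with a term for the numbering series or with only the 6 libraries of this comparison in the fit, where 0 members were called. Under the numbering series the log2 fold changes were 0.3 for Plat, 0.18 for Mmp9, 0.43 for Adamts9, 0.82 for Mmp3, 0.53 for Adamts6 and -0.28 for Adamtsl4. Without 1 library, calls were also lost for Mmp3 without enzalutamide-alone replicates 1 or 2 or enzalutamide co-culture replicates 2 or 3 (adjusted p between 0.0505 and 0.135), Adamts6 without enzalutamide-alone replicates 1 or 3 or enzalutamide co-culture replicates 1 or 2 (adjusted p between 0.0935 and 0.126) and Adamts9 without enzalutamide-alone replicates 1 or 3 or enzalutamide co-culture replicates 1 or 2 (adjusted p between 0.0629 and 0.0935). The same held for Mmp9 without enzalutamide co-culture replicate 2 (adjusted p = 0.0547) and Adamtsl4 without enzalutamide-alone replicate 1 or enzalutamide co-culture replicate 2 (adjusted p between 0.182 and 0.189), and the count was 3 without enzalutamide-alone replicate 1 and 1 without enzalutamide co-culture replicate 2. With and without fibroblasts, the marker sums apart were 568 to 639.8 CPM against 375 to 424 CPM for the 4 smooth muscle markers and 3.41 to 4.51 CPM against 4.94 to 6.17 CPM for the 4 leukocyte markers, and their part in these differences was not tested.

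When isoliquiritigenin was added to fibroblasts and enzalutamide, more members were called than in the other 6 comparisons, 9 higher and 12 lower, beside 26.5% of all tested genes called (12.9% higher and 13.6% lower). The proteoglycanases Adamts9, Adamts4 and Adamts5 fell, and so did the procollagen N-propeptidase Adamts14, the gelatinase Mmp9, the plasminogen activators Plau and Plat and the stromelysins Mmp3 and Mmp11. The membrane-type Mmp14 and Mmp16 rose, with Mmp2, Adamts3, Adamtsl1, Adamtsl5 and the inhibitors Timp2 and Timp3. Both gelatinases therefore changed in opposite directions, as did the procollagen N-propeptidases Adamts14 and Adamts3. The median log2 fold change of the members was -0.04, beside 0.00 over all genes.

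Adamts14 (ENSMUSG00000059901, chr10:61197112-61273438, minus strand) had 44.9, 44.5 and 44.6 CPM with isoliquiritigenin, against 86.4, 78.1 and 87.4 CPM with enzalutamide only. Adamts9 had 14.3, 12.97 and 15.3 CPM, against 29.9, 27.4 and 26.03 CPM. Adamts4 had 14.9, 17.2 and 13.5 CPM, against 25.04, 24.04 and 23.2 CPM. In each, every isoliquiritigenin library was far below the others, at log2 -0.91 ± 0.07 (adjusted p = 1.16e-09), -0.96 ± 0.08 (adjusted p = 2.55e-09) and -0.67 ± 0.08 (adjusted p = 4.91e-07). Plau had 41.3, 38.1 and 40.6 CPM with isoliquiritigenin, against 61.3, 59.5 and 57.7 CPM. Plat had 87.2, 77.03 and 81.3 CPM, against 115, 113 and 108 CPM. Mmp9 had 64.2, 63.3 and 64.6 CPM, against 84.8, 92.8 and 97.1 CPM. Each was lower without overlap, by 1.49-fold (adjusted p = 1.19e-07), 1.36-fold (adjusted p = 5.85e-07) and 1.43-fold (adjusted p = 2.96e-07). Mmp3 had 1.61, 1.75 and 1.31 CPM, against 2.24, 2.799 and 2.42 CPM, and Mmp17, a GPI-anchored membrane-type MMP, had 0.502, 0.368 and 0.421 CPM, against 0.934, 1.05 and 1.02 CPM. These low genes fell too (log2 -0.67 ± 0.21 and -1.19 ± 0.30). Adamts7 (log2 -0.38), Mmp11 (-0.35), Adamts5 (-0.22) and Adamtsl4 (-0.21) were the other members that fell.

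Mmp14 (ENSMUSG00000000957, chr14:54431612-54445364, plus strand) had 938, 1000.2 and 954 CPM with isoliquiritigenin, against 667, 706 and 717 CPM with enzalutamide only. Mmp16 had 56.6, 60.5 and 43.03 CPM, against 29.1, 30.7 and 27.3 CPM. Mmp2 had 525, 535 and 523 CPM, against 402, 435 and 429.9 CPM. These were higher in each treated library, by 1.38-fold (adjusted p = 1.01e-06), 1.84-fold (adjusted p = 3.73e-07) and 1.25-fold (adjusted p = 3.08e-05). Adamtsl1 had 19.7, 20.1 and 14.1 CPM with isoliquiritigenin, against 8.595, 9.597 and 8.58 CPM. Adamts3 had 24.6, 28.5 and 23.98 CPM, against 14.9, 17.1 and 12.8 CPM. Adamtsl5 had 68, 77.5 and 69.7 CPM, against 45.5, 50.3 and 53.5 CPM. Again the groups were apart, at log2 1.01 ± 0.13 (adjusted p = 1.69e-06), 0.78 ± 0.10 (adjusted p = 4.53e-06) and 0.53 ± 0.08 (adjusted p = 1.44e-05). Adamts16 was called higher with 0.968, 1.29 and 0.379 CPM with isoliquiritigenin against 0.4204, 0.4998 and 0.0485 CPM, and it is the only call of this comparison whose groups overlap.

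Of the inhibitors Timp2 had 1767, 1835 and 1708 CPM with isoliquiritigenin, against 1449.7, 1539.6 and 1497 CPM, and Timp3 had 352, 372 and 324 CPM, against 284, 316 and 297 CPM. Both were higher without overlap (log2 0.24 ± 0.05, adjusted p = 0.000545, and 0.22 ± 0.06, adjusted p = 0.00782). Timp1 at 82.2 ± 7.88 CPM against 89.97 ± 4.29 CPM, Reck at 31.1 ± 2.45 CPM against 32.2 ± 1.9 CPM, Plaur at 41.2 ± 3.05 CPM against 42.6 ± 1.81 CPM and Adamts1 at 258 ± 16.2 CPM against 233 ± 11.6 CPM did not pass. Calls lost without 1 library were Adamtsl4 without enzalutamide co-culture replicates 1 or 3 or isoliquiritigenin replicates 1, 2 or 3 (adjusted p between 0.06204 and 0.187), Timp3 without isoliquiritigenin replicate 2 (adjusted p = 0.0647) and Mmp3 without enzalutamide co-culture replicate 2 or isoliquiritigenin replicate 3 (adjusted p between 0.0764 and 0.0798). So was Adamts16 without enzalutamide co-culture replicate 3 or isoliquiritigenin replicates 1 or 2 (adjusted p between 0.0799 and 0.157), whose log2 fold change was 0.92 without enzalutamide co-culture replicate 3, against 1.42. Within the second numbering series alone, that is without enzalutamide co-culture replicate 1, 20 members were called. The call of Adamtsl4 was also lost with the numbering series as a term (adjusted p = 0.134) and that of Adamts16 with only the 6 libraries of this comparison in the fit (0.0522). Marker sums with isoliquiritigenin and with enzalutamide only lay apart, at 15031 to 15258 CPM against 18623 to 19523 CPM for the 7 fibroblast markers, 408 to 533 CPM against 568 to 639.8 CPM for the 4 smooth muscle markers, 1.52 to 2.94 CPM against 5.95 to 8.19 CPM for the 6 luminal markers and 4.69 to 4.91 CPM against 3.27 to 3.399 CPM for the 3 endothelial markers. Krt19 carried the luminal difference, at 1.33 ± 0.814 CPM with isoliquiritigenin against 6.26 ± 1.09 CPM, while the other luminal markers were under 1 CPM and Krt18 had 0.497 ± 0.241 CPM against 0.294 ± 0.174 CPM; the part of these shifts in the members' changes was not tested.

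The counts of partners below stand beside the 26.5% of all genes called in this comparison. Of 7 tested plasminogen partners 1 rose and 2 fell (median 0.07): the plasminogen-binding pair S100a10 and Anxa2 averaged 267 ± 33.1 and 1022 ± 38.9 CPM with isoliquiritigenin against 447 ± 4.02 and 1389.6 ± 16.8 CPM with enzalutamide only. Serpine2 averaged 115 ± 2.95 CPM against 79.8 ± 0.942 CPM (log2 0.53 ± 0.05, adjusted p = 9.50e-08). Of 8 MMP activators and partners 1 rose and 3 fell (median -0.17): Pcsk6 averaged 8.61 ± 0.585 CPM against 4.17 ± 0.0763 CPM, while Cd44, Itgav and Itgb3 were lower at log2 -0.32, -0.36 and -0.52. Of the 7 AP-1 subunits 2 rose and 1 fell (median 0.16).

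**Figure D4:**
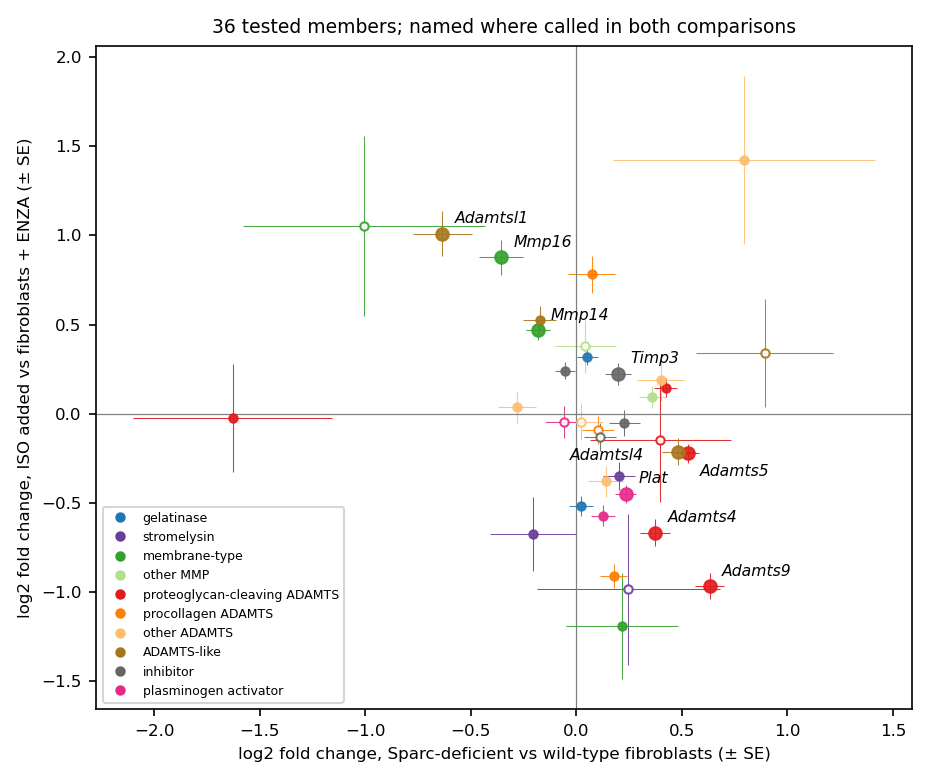
Log2 fold change (± SE) of the 36 tested members with Sparc-deficient against wild-type fibroblasts (x) and with isoliquiritigenin added to fibroblasts and enzalutamide (y), coloured by role; larger named points are called in both, small filled points in 1 and open points in neither. Of the 9 named members, 8 lie in the quadrants of opposite sign and Timp3 in that of equal sign.

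The Sparc-deficient and isoliquiritigenin comparisons share no library, and 9 members were called in both, 60% of the Sparc-deficient calls and 42.9% of the isoliquiritigenin calls. These shares lay close to the members' own call rates, 58.3% of the 36 tested with isoliquiritigenin and 41.7% with Sparc-deficient fibroblasts. Over all tested genes the shared calls were 46.1% of the Sparc-deficient and 20.1% of the isoliquiritigenin calls. The call rates over all tested genes were 26.5% with isoliquiritigenin and 11.5% with Sparc-deficient fibroblasts. Adamts9, Adamts4, Adamts5, Plat and Adamtsl4 were higher with Sparc-deficient fibroblasts and lower with isoliquiritigenin, and Mmp14, Mmp16 and Adamtsl1 were the reverse. Timp3 was higher in both. Over all tested genes 722 were called in both, and 516 of them (71.5%) had opposite directions, so opposite signs were also the more common case outside the members. Pcsk6 and Serpine2 among the partners likewise changed in opposite directions, at log2 -1.0 and -0.26 with Sparc-deficient fibroblasts and 1.04 and 0.53 with isoliquiritigenin.

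Over the 7 comparisons and the interaction 30 of the 36 tested members were called at least once. The share of all tested genes called at least once was not counted, so this number has no comparator. The 6 never called were Timp1, Plaur, Mmp10, Mmp15, Mmp28 and Adamts20. Timp1 ranged from 74.3 to 118 CPM over the 18 libraries and Plaur from 34.8 to 50.3 CPM. Mmp28 (epilysin) stayed between 3.2 and 6.09 CPM. Mmp10, Mmp15 and Adamts20 were at or under 1.28 CPM throughout, where counting error is wide. Among the members above 10 CPM in T23 cells alone, the ratio of highest to lowest library was largest for Mmp16 and then Adamts9. Adamtsl1, at a mean of 9.93 CPM in T23 cells alone, fell just under this cut. It had a larger ratio, with 5.29 to 20.1 CPM over the 18 libraries. Mmp16 had 60.5 CPM in an isoliquiritigenin library and 18.4 CPM in a Sparc-deficient one, and Adamts9 lay the other way, with 42.2 CPM in a Sparc-deficient library and 12.97 CPM in an isoliquiritigenin one.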

How the data were processed

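Gene counts of 18 poly(A) RNA-seq libraries in 6 groups of 3 were analysed. The deposited values are raw counts per Ensembl gene, made by the authors with no normalisation. The submitters' processing notes list the aligner STAR 2.6.1d after trimming by cutadapt 2.9, counting by featureCounts 2.0, the build GRCm38, and also FastQC 0.11.9 and DESeq2; the labels name a stranded kit. How multi-mapping reads were treated, which annotation was used and whether counting was by strand are not given in the sources used here, so counts of overlapping genes and paralogs are uncertain. Symbols, positions and merged exon lengths came from GENCODE M21 (GRCm38), which matched 55227 of 55487 IDs; Mmp1a is not protein-coding there and so no member. Promoter windows came from RefSeq (GRCm38.p6).

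Genes passing filterByExpr (minimum count 10; 13600) were fitted with edgeR 4.0.16 (limma 3.58.1, R 4.3.3): TMM scaling, 1 mean per group, all 18 libraries, 12 residual degrees of freedom. Each comparison was a two-sided quasi-likelihood F test with Benjamini-Hochberg adjustment over all tested genes, called at 0.05. Log2 fold changes are the named group over its comparator. Values written as fold are the higher level over the lower, with the direction given in words. SE is |log2 fold change| divided by sqrt(F). DESeq2 1.42.0, other size factors, filters, fits and left-out libraries served as alternatives. The procedure was tested on simulated counts for Sparc-deficient against wild-type fibroblasts. It recovered 66% of 1.5-fold and 89% of 2-fold changes, and called 4 of 13215 unchanged genes. Changes smaller than 1.5-fold were not simulated, so a member that did not pass is not shown to be unchanged. All members are accounted for. Values of every library are given for a fixed set of members, for calls of at least 0.5 in log2 and for the 5 smallest p of each comparison. Members, lists and this rule were chosen with earlier results of these data known. A gene of the plasminogen list is not reported here, and that list's counts and medians leave it out. The labels do not say that replicates are separate cultures, so p-values measure the spread between these libraries, which may be technical. Limits for a count of 0 are 3 counts and cover counting error only.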

Additional observations from a re-analysis of the deposited data

How the results depend on the processing

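Over 73 called pairs of member and comparison, 43 stayed called under every alternative run, and 0 changed sign. Leaving out 1 library at a time, the number of members called lay between 8 and 17 for Sparc-deficient against wild-type fibroblasts (15 with all libraries), between 7 and 14 for Sparc-deficient fibroblasts against T23 cells alone (12), between 7 and 11 for enzalutamide against T23 cells alone (11), between 6 and 9 for fibroblasts and enzalutamide against wild-type fibroblasts (8), between 1 and 5 for fibroblasts and enzalutamide against enzalutamide alone (6), and between 18 and 22 with isoliquiritigenin (21). It was 0 throughout for wild-type fibroblasts against T23 cells alone and for the interaction. A fit of only the groups compared called 2 members for wild-type fibroblasts against T23 cells alone, 7 for enzalutamide alone and 0 for fibroblasts and enzalutamide against enzalutamide alone. With the numbering series as a term, the co-culture with enzalutamide had 5 calls against wild-type fibroblasts and 0 against enzalutamide alone. The causes of these shifts were not tested.

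Replicate numbers did not pair the libraries: same-number correlations of deviations ran from -0.144 to 0.0982, and in 0 of 15 pairs of groups were all above 0.1. With the replicate block, 13, 11, 0, 11, 8, 6, 20 and 0 members were called in the order of the comparisons in the report with the interaction last. In the same order 1441, 1216, 56, 1539, 921, 234, 3498 and 0 of all tested genes were called. Under this block Reck (adjusted p = 0.0592) and Adamts10 (0.0582) missed the threshold for Sparc-deficient against wild-type fibroblasts, Adamts15 (0.0513) against T23 cells alone and Adamtsl4 (0.0540) with isoliquiritigenin. Reck also missed it without the count filter (0.0943).

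Counts over all genes moved by more than 1.5 times in these cases. For Sparc-deficient against wild-type fibroblasts, 1566 genes were called with all libraries, 994 or 857 when replicate 1 or 2 of the wild-type co-culture was left out and 903 without Sparc-deficient replicate 2. For Sparc-deficient fibroblasts against T23 cells alone, 1325 were called, against 2188 with only these groups and between 743 and 870 when 1 library of these groups other than Sparc-deficient replicate 1 was left out. For wild-type fibroblasts against T23 cells alone, 70 were called, 153 with DESeq2, 165 without the filter, 336 with only these groups, 157 without enzalutamide-alone replicate 2 and as few as 11 without another library. For enzalutamide against T23 cells alone, 1636 were called, 740 with only these groups and as few as 901 without a library. For fibroblasts and enzalutamide, 977 were called against wild-type fibroblasts (214 with the numbering series, as few as 550 without a library) and 283 against enzalutamide alone (425 with DESeq2, 541 without the filter, 56 with only these groups, 11 with the numbering series, 148 without enzalutamide-alone replicate 1, 83 without enzalutamide co-culture replicate 2). The interaction had 3 calls, 99 without the filter, 0 under most other settings and at most 12 without a library. Depth limits the members under 3 CPM, where a library holds few counts.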

Other observations

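Matrix proteases outside the member list were described by further lists, whose counts stand beside 11.5% of all tested genes called with Sparc-deficient fibroblasts, 26.5% with isoliquiritigenin and 12% under enzalutamide alone. Of 10 tested genes of the membrane-bound ADAM family, 1 rose with Sparc-deficient fibroblasts and none fell: Adam8, a sheddase of myeloid and tumour cells, averaged 38.01 ± 2.93 CPM, against 27.3 ± 0.592 CPM with wild-type fibroblasts (log2 0.47 ± 0.09, adjusted p = 0.000753). With isoliquiritigenin 2 rose and 2 fell. Adam8 averaged 12.98 ± 1.502 CPM, against 26.05 ± 0.8497 CPM with enzalutamide only (log2 -1.0 ± 0.10, adjusted p = 4.24e-08), and Adam12, a protease of muscle and stroma, 31.7 ± 2.13 CPM, against 21.4 ± 0.802 CPM (log2 0.57 ± 0.08, adjusted p = 9.17e-06). Under enzalutamide alone Adam12 was the 1 member of this family that fell, with 25.4 ± 2.94 CPM against 46.7 ± 2.27 CPM (log2 -0.87 ± 0.08, adjusted p = 7.31e-08). The median log2 fold changes of the family were 0.07, 0.08 and 0.00 in these comparisons, beside -0.01, 0.00 and 0.00 over all genes.

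Of 8 tested cathepsins and cystatin genes, none rose and 1 fell with Sparc-deficient fibroblasts, beside 11.5% of all genes called, and 4 rose and 1 fell with isoliquiritigenin, beside 26.5%. Ctsk, which encodes the collagen-cutting cathepsin K, averaged 7.42 ± 0.641 CPM with Sparc-deficient fibroblasts, against 12.03 ± 0.682 CPM with wild-type fibroblasts (log2 -0.7 ± 0.10, adjusted p = 4.29e-05). It averaged 23.6 ± 1.92 CPM with isoliquiritigenin, against 11.5 ± 0.201 CPM with enzalutamide only (log2 1.04 ± 0.09, adjusted p = 1.08e-08). Ctsd and Ctsb rose as well with isoliquiritigenin (log2 0.43 and 0.24), and Ctsh fell (log2 -0.49). Of 8 tested procollagens and procollagen-processing genes, 2 rose with Sparc-deficient fibroblasts, beside 6.72% of all genes higher: Col3a1 (log2 0.21) and the C-propeptidase Bmp1 (0.21). With isoliquiritigenin 1 rose and 4 fell, beside 12.9% higher and 13.6% lower over all genes, and Col1a1 averaged 7068 ± 200.4 CPM, against 8858 ± 292 CPM with enzalutamide only (log2 -0.33 ± 0.05, adjusted p = 6.30e-05).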
